A study of Mus musculus with 36 samples.

Results

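A set of 9 genes of the complement system, C3, C4b, C1ra, C1s1, C2, Cfb, Serping1, Cd55 and C3ar1, was followed in primary murine enteric glial cells (EGCs), the glia of the gut's nervous system, exposed to the secretions of a colonic tumor. These were taken by symbol as 9 rows of a count table of 43472 genes. RNA came from wild-type (WT) EGCs of C57BL/6J mice, grown from neurospheres of embryonic intestines, which were left unstimulated, or stimulated with conditioned medium of healthy colon (H-CM) or of tumors grown in the colon from MC38, a mouse colorectal cancer cell line (TME-CM, for tumor microenvironment), for 6, 12 or 24 h. Each of the 9 groups had 4 libraries, 36 in all, sequenced by QuantSeq, so that a read marks the 3′ end of a transcript. Both conditioned media came from digested tissue cultured overnight, so they hold the products of many cell types, and the cultures are of embryonic and not adult origin. The labels do not say whether the 4 libraries of a group came from separate cultures, and p-values then measure only the spread between these libraries, which may be technical.

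Complement is a cascade of plasma and cell surface proteins that marks targets for removal and attracts leukocytes. In the classical pathway, C1q bound to a target activates the proteases C1r and C1s, which cleave C4 and C2 to build an enzyme, a convertase, that cleaves C3. Factor B, the product of Cfb, forms the convertase of the alternative pathway. C1 inhibitor, the product of Serping1, blocks C1r and C1s, CD55 speeds the decay of convertases on the cell's own surface, and C3ar1 encodes the receptor of the fragment C3a. The liver makes most of the circulating proteins, and many tissue cells, astrocytes among them, raise C3 transcripts in inflammation.

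The genes lie on 4 chromosomes (GRCm38, the assembly also called mm10). C3 spans chr17:57203970-57228136, and the cluster of C4b, Cfb and C2 lies on the same chromosome between C4b at chr17:34728380-34743882 and C2 at chr17:34862604-34898265. C1ra at chr6:124512405-124523443 and C1s1 at chr6:124530345-124542359 are neighbours on opposite strands, and C3ar1 lies at chr6:122847138-122856161. Serping1 spans chr2:84765387-84775444 and Cd55 chr1:130439027-130462744. Of the 9 genes, 5 have a RefSeq promoter sequence (GRCm38.p6), taken as 250 bases before to 50 after the start site. Those of C3 (chr17:57228087-57228386, minus strand), C1ra (chr6:124512371-124512670, plus strand) and C1s1 (chr6:124542310-124542609, minus strand) are shown because the transcripts of these genes rose together under TME-CM, and the promoter of C3ar1 (chr6:122856108-122856407, minus strand) because that gene was not called in any comparison. Capitals mark matches, on either strand, to the core of 5 motifs of inflammatory transcription factors, TTCNNNGAA (GAS, bound by STAT proteins), GAAANNGAA (ISRE core), TTGCNNAA (C/EBP core), TGANTCA (AP-1) and the NF-kB motif.
C3: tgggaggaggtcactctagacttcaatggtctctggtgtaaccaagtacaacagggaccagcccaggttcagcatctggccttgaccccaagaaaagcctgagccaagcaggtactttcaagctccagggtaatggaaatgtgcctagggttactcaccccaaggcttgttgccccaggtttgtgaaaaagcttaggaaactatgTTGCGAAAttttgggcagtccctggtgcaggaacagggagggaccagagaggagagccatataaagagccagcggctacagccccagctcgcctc
C1ra: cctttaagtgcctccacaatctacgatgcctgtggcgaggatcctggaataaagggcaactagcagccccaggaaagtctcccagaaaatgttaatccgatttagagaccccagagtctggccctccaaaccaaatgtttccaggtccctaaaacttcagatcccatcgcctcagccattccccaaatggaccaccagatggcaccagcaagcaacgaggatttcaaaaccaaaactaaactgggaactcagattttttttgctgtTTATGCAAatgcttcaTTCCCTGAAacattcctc
C1s1: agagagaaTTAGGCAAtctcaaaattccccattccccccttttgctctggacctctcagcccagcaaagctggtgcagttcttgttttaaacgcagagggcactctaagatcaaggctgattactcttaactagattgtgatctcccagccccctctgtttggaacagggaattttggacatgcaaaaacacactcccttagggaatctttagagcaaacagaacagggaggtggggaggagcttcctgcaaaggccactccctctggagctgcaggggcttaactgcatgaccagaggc
C3ar1: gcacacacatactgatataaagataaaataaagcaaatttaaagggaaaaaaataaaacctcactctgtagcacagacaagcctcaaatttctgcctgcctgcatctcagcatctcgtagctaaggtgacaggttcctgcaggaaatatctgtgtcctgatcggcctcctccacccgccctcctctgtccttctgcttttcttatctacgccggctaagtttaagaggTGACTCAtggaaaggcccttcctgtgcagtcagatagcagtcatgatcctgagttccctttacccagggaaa

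A C/EBP core stood in 3 of the 4 sequences, as TTGCGAAA 45 bases before the C3 start site, TTATGCAA from base 16 after the C1ra start site and TTAGGCAA 242 bases before the C1s1 start site. C1ra also held a GAS match, TTCCCTGAA, from base 32 after its start site, and its RefSeq start lies 216 bases from the start of the gene in the GENCODE annotation. C3ar1 had none of these and held an AP-1 match, TGACTCA, 22 bases before its start site. Cd55, whose promoter was searched and is not shown, matched none of the 5 motifs. Among 32851 promoters of the same length, 10.8% held the C/EBP core, 8.3% GAS, 8.6% the ISRE core, 7.8% AP-1 and 8.5% the NF-kB motif, so each match is a common one. No motif overlapped another.

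The libraries held 13518 to 7552509 counts, and the median library grew from 1526580 counts among those of 6 h to 5465090.5 among those of 24 h. H-CM replicate 4 of 6 h had only 13518 counts and stands apart from all others, of which the lowest held 256453. In that library a single read is worth 32.7 CPM (counts scaled to a common library size with TMM factors, the unit of all levels below), against at most 0.526 CPM at 12 h and 0.571 CPM at 24 h. A single table entry, Yam1, took up to 48.6% of the counts of a library. Groups were compared by the quasi-likelihood test of edgeR, separately at each time, and calls are adjusted p-values under 0.05 (Benjamini-Hochberg over all genes tested). Levels are not compared between genes.

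Of the 9 genes, 6 passed the filter on low counts at 12 h and 24 h, namely C3, C1ra, C1s1, Serping1, Cd55 and C3ar1, and 3 did so at 6 h, namely Serping1, Cd55 and C3ar1. C4b, C2 and Cfb passed it at no time. In TME-CM versus H-CM at 24 h, 4 of the 6 tested genes rose (C3, C1ra, C1s1 and Serping1), where 2.75% of all 12713 genes tested were called higher. At 12 h, 3 of 6 rose (C3, C1ra and Serping1), where the share of all 12156 genes was 1.22%. Against unstimulated EGCs the same 4 genes were called at both times, 4 of 6 beside 2.67% of all genes at 12 h and 4 of 6 beside 4.82% at 24 h. H-CM alone raised 2 of 6 at 24 h (C1ra and Serping1), where 1.07% of all genes were called higher. The median log2 fold change over the 6 genes in TME-CM versus H-CM was 1.35 at 12 h and 1.66 at 24 h, beside 0.00 and 0.00 over all genes. Since genes low in every group were filtered out, these shares describe the genes with enough reads and not all 9. The 9 genes were also chosen with earlier results of these data known, so the shares are a description and not a test. In bulk RNA, fewer cells of a type and less RNA per cell cannot be told apart. When all 36 libraries shared one model, Serping1 alone was called in TME-CM versus H-CM at 12 h and at 24 h, and C3, C1ra and C1s1 were not (edgeR, adjusted p = 0.0954, 0.473 and 0.583 at 24 h). The same model also lost C1ra in TME-CM versus unstimulated at 12 h, and both genes called in H-CM versus unstimulated at 24 h.

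**Figure D1:**
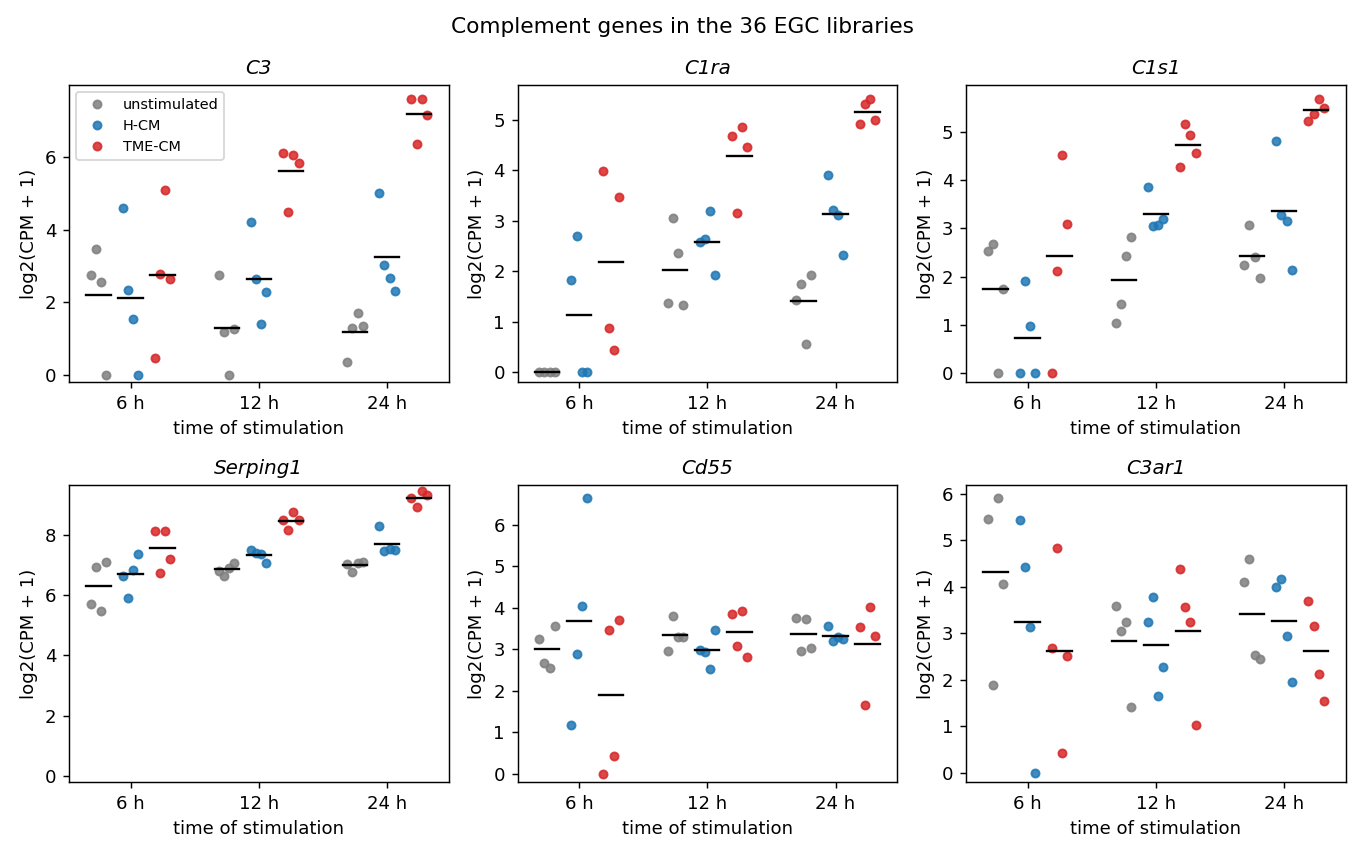
Level of the 6 tested complement genes as log2(CPM + 1) in every library (points) of the unstimulated (grey), H-CM (blue) and TME-CM (red) groups at 6, 12 and 24 h, with the group mean as a bar (n = 4). At 24 h the TME-CM libraries of C3, C1ra, C1s1 and Serping1 lie above all H-CM libraries, and those of Cd55 and C3ar1 lie among them.

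The initiating proteases C1r and C1s were examined first, since they start the classical pathway. C1ra, which encodes C1r, stood at 28.9, 38.8, 41.6 and 30.8 CPM in the 4 TME-CM libraries of 24 h, at 14.0, 8.24, 7.64 and 3.99 CPM in H-CM and at 1.71, 2.37, 0.481 and 2.80 CPM in unstimulated EGCs. The 3 groups did not overlap, and the level was lowest without medium and highest with TME-CM. TME-CM exceeded H-CM by 1.98 ± 0.31 (SE) on the log2 scale, 3.96-fold (edgeR, adjusted p = 0.000324). The difference from unstimulated EGCs was 4.21 ± 0.37, 18.5-fold (edgeR, adjusted p = 5.5e-08). H-CM itself exceeded the unstimulated group by 2.23 ± 0.38, 4.69-fold (edgeR, adjusted p = 0.00238).

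At 12 h, the C1ra libraries of TME-CM had 24.6, 7.87, 28.1 and 21.0 CPM, those of H-CM 4.95, 5.20, 8.08 and 2.81 CPM, and the unstimulated ones 1.58, 7.27, 4.10 and 1.53 CPM. The lowest TME-CM library fell below the highest H-CM library, so these groups overlapped. C1ra was 1.97 ± 0.50 higher in TME-CM than in H-CM on the log2 scale (edgeR, adjusted p = 0.0463), and this call was lost in 6 of 8 fits that left out a library, with adjusted p-values up to 0.170, and held only without H-CM replicate 3 or TME-CM replicate 2. It was also lost with the replicate number as a block (edgeR, adjusted p = 0.0539) and without Yam1 (edgeR, adjusted p = 0.0501). Against unstimulated EGCs the difference was 2.54 ± 0.54 (edgeR, adjusted p = 0.00484), a call that was lost in one model of all 36 libraries (edgeR, adjusted p = 0.074), and H-CM differed from them by 0.57 ± 0.54 (edgeR, adjusted p = 0.997). In the 4 unstimulated libraries of 6 h no read of C1ra was counted, 2 of 4 H-CM libraries had reads, and the TME-CM libraries had 74, 1, 1 and 54 counts.

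C1s1, which encodes C1s, had 36.6, 40.6, 50.9 and 44.3 CPM in TME-CM at 24 h, 27.4, 8.78, 7.89 and 3.42 CPM in H-CM and 3.71, 7.46, 4.33 and 2.94 CPM in unstimulated EGCs. Every TME-CM library lay above every H-CM library, while H-CM and unstimulated libraries overlapped. The TME-CM level exceeded that of H-CM by 1.81 ± 0.41 on the log2 scale, 3.50-fold (edgeR, adjusted p = 0.0156), and that of unstimulated EGCs by 3.22 ± 0.45, 9.34-fold (edgeR, adjusted p = 0.000146). H-CM replicate 1 was 3.12 times the next H-CM library. Without it the fold of TME-CM over H-CM was 5.91 instead of 3.50, and without H-CM replicate 2 or 3 the call was lost (edgeR, adjusted p = 0.0641 and 0.065).

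C1s1 showed the same order at 12 h. TME-CM libraries had 18.3, 35.2, 29.9 and 22.8 CPM, H-CM libraries 13.5, 7.35, 7.37 and 8.12 CPM, and unstimulated ones 1.05, 1.71, 4.37 and 6.11 CPM, without overlap between any of the 3 groups. The difference between TME-CM and H-CM was 1.55 ± 0.41 and missed the threshold (edgeR, adjusted p = 0.0536), whereas DESeq2's Wald test on the same libraries gave an adjusted p of 0.00835. TME-CM exceeded the unstimulated group by 2.84 ± 0.44, 7.16-fold (edgeR, adjusted p = 0.000241). H-CM differed from it by 1.29 ± 0.44 at 12 h (edgeR, adjusted p = 0.511) and by 1.42 ± 0.46 at 24 h (edgeR, adjusted p = 0.182).

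Near-identical copies of both protease genes exist in the mouse. Of the stretches of 50 bases in C1ra exons, 48.0% also occur in C1rb, but none of the last 300, where 3′ reads fall. For C1s1, 24.3% are shared with C1s2, including 51 of the last 300. Since the authors discarded reads with several mapping positions, reads from shared stretches are missing from these counts, and the copies themselves had 5 counts (C1rb) and 8 counts (C1s2) over the 36 libraries. C1s1 also shares 576 exon bases with Gm16567 on the opposite strand, a gene without a count.

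C3, the protein on which all activation pathways converge, had the largest differences among the 6 genes tested in TME-CM versus H-CM and versus unstimulated EGCs at 12 h and 24 h. At 24 h its level was 192, 81.1, 191 and 141 CPM in TME-CM, 31.0, 7.14, 5.42 and 3.99 CPM in H-CM and 0.285, 1.46, 2.25 and 1.54 CPM in unstimulated EGCs. No library of one group reached into another. TME-CM exceeded H-CM by 3.64 ± 0.57 on the log2 scale, 12.5-fold (edgeR, adjusted p = 0.00356), and unstimulated EGCs by 6.64 ± 0.72 (edgeR, adjusted p = 0.000133). The unstimulated libraries held only 1 to 14 counts of C3, which limits the precision of the latter difference.

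H-CM replicate 1 was the highest H-CM library of C3 at each of the 3 times, at 5.58, 3.39 and 4.35 times the next library at 6, 12 and 24 h. Without it, the mean of the 3 remaining H-CM libraries of 24 h was 5.52 CPM instead of 11.9 CPM, and TME-CM exceeded H-CM 26.1-fold (edgeR, adjusted p = 8.9e-08). H-CM was 3.00 ± 0.80 above unstimulated EGCs on the log2 scale and was not called (edgeR, adjusted p = 0.113), although the groups did not overlap. The same difference was called by DESeq2's Wald test (adjusted p = 0.00147), in a model of only these groups (edgeR, adjusted p = 0.0254) and without H-CM replicate 1, where it was 1.94 on the log2 scale (edgeR, adjusted p = 0.038). Whether H-CM raised C3 thus depended on the fit.

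At 12 h C3 stood at 67.4, 21.5, 65.8 and 55.8 CPM in TME-CM, at 17.6, 5.20, 1.66 and 3.84 CPM in H-CM and at 5.78, 1.28, 0 and 1.39 CPM in unstimulated EGCs. TME-CM libraries lay above all others, and H-CM and unstimulated libraries overlapped. The difference between TME-CM and H-CM was 2.94 ± 0.68, 7.68-fold (edgeR, adjusted p = 0.0413). It was 14.4-fold without H-CM replicate 1 (edgeR, adjusted p = 0.00143), and 6 of 8 fits that left out a library lost the call, with adjusted p-values up to 0.176, while it held without H-CM replicate 1 or TME-CM replicate 2. Over unstimulated EGCs the difference was 4.90 ± 0.82, 29.9-fold (edgeR, adjusted p = 0.00187), or 54.7-fold without unstimulated replicate 1. C3 in H-CM was 1.96 ± 0.84 above the unstimulated group (edgeR, adjusted p = 0.832).

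The other components of the C3 convertases were barely counted. C4b, whose product is cleaved by C1s, had a count in 14 of 36 libraries and never more than 5. At 24 h it had 5, 2, 2 and 2 counts in TME-CM, 0, 0, 1 and 0 in H-CM and 0, 0, 5 and 0 in unstimulated EGCs, which are too few for the filter. Of its 50-base stretches, 35.2% recur in C4a, including 163 of the last 300, so many C4b reads would map to both genes, and C4a had 18 counts in all. C2, the partner of C4 in the convertase, had a count in 27 libraries with 31 as the highest, and its mean at 24 h was 0.517 ± 0.502 CPM (SD, n = 4) in unstimulated EGCs, 1.31 ± 0.65 CPM in H-CM and 1.5 ± 0.83 CPM in TME-CM. With no filter, C2 differed between TME-CM and H-CM at 24 h by 0.16 ± 0.91 on the log2 scale (edgeR, adjusted p = 1). Cfb had 6 counts in all, 5 in TME-CM replicate 3 of 12 h and 1 in TME-CM replicate 1 of 24 h. Gm20547, an annotated gene of the same strand without a count, covers 79.5% of the exon bases of Cfb and 42.8% of those of C2. Reads assigned to both genes would be left out of either. Of the last 300 bases, where 3′ reads fall, it covers 221 for Cfb and 0 for C2. A change of C4b, C2 or Cfb could therefore have been missed at this depth. For C4b the copy C4a and for Cfb the overlapping gene model add to this limit.

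Serping1, the inhibitor of C1r and C1s, was counted in all 36 libraries and rose with the proteases it inhibits. At 24 h it stood at 591, 479, 704 and 642 CPM in TME-CM, at 315, 174, 182 and 178 CPM in H-CM and at 130, 109, 134 and 135 CPM in unstimulated EGCs. The groups did not overlap. TME-CM was above H-CM by 1.51 ± 0.17 on the log2 scale, 2.85-fold (edgeR, adjusted p = 1.09e-05), and above unstimulated EGCs by 2.25 ± 0.18, 4.76-fold (edgeR, adjusted p = 1.64e-08). H-CM exceeded unstimulated EGCs by 0.74 ± 0.17, 1.67-fold (edgeR, adjusted p = 0.0231). H-CM replicate 1 was again the highest of its group, and without it the H-CM call was lost at 0.49 on the log2 scale (edgeR, adjusted p = 0.0915), as it was without unstimulated replicate 1, 2, 3 or 4 (edgeR, adjusted p = 0.0554, 0.0939, 0.0638 and 0.0545).

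At 12 h Serping1 had 359, 282, 428 and 357 CPM in TME-CM, 180, 168, 164 and 131 CPM in H-CM and 109, 98.4, 119 and 134 CPM in unstimulated EGCs. All TME-CM libraries lay above all others, and H-CM replicate 4 fell below the highest unstimulated library. The difference of 1.15 ± 0.18 between TME-CM and H-CM, 2.22-fold, was called (edgeR, adjusted p = 0.000914), as was that of 1.63 ± 0.18 to unstimulated EGCs, 3.09-fold (edgeR, adjusted p = 6.97e-06). H-CM was 0.48 ± 0.18 above unstimulated EGCs (edgeR, adjusted p = 0.642).

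Serping1 was also the only one of the 3 genes tested at 6 h with an unadjusted p under 0.05. TME-CM libraries of 6 h had 280, 106, 276 and 146 CPM, H-CM libraries 99.4, 59.4, 112 and 163 CPM, and unstimulated ones 51.4, 120, 44.0 and 136 CPM, with overlap between all groups. The value of 163 CPM rests on 5 reads in the shallow H-CM replicate 4. TME-CM differed from H-CM by 1.03 ± 0.46 on the log2 scale (edgeR, adjusted p = 0.804), or by 1.23 ± 0.48 without that library (edgeR, adjusted p = 0.857), and from unstimulated EGCs by 1.16 ± 0.44 (edgeR, adjusted p = 0.554). In the models of 6 h alone, none of the 3 genes tested was called by edgeR or by DESeq2. In TME-CM versus H-CM, TME-CM versus unstimulated and H-CM versus unstimulated, edgeR called 0.0972%, 0.432% and 0% of all genes higher. In the same order, 1, 1 and 0 of the 3 genes had an unadjusted p under 0.05, beside 562, 573 and 58 of all 9256 genes. In one model of all 36 libraries, Serping1 was called at 6 h in TME-CM versus H-CM (1.13, edgeR, adjusted p = 0.0245) and versus unstimulated EGCs (1.14, edgeR, adjusted p = 0.0119).

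Cd55, which protects cells from their own complement, stayed at a low level in every group. At 24 h TME-CM libraries had 10.6, 2.18, 15.2 and 8.94 CPM, H-CM libraries 10.9, 8.24, 8.75 and 8.56 CPM, and unstimulated ones 12.6, 6.74, 12.2 and 7.14 CPM. The groups overlapped throughout. TME-CM differed from H-CM by 0.09 ± 0.36 on the log2 scale (edgeR, adjusted p = 0.946) and from unstimulated EGCs by 0.02 ± 0.35 (edgeR, adjusted p = 0.991), values whose sign turned with the replicate block. At 12 h the difference to H-CM was 0.54 ± 0.41 (edgeR, adjusted p = 0.714). The 98.1 CPM in H-CM replicate 4 of 6 h are 3 reads. Of its 50-base stretches 10.7% recur in Cd55b, which had 1 count in all (under its older symbol Daf2), and none of these lie in the last 300.

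**Figure D2:**
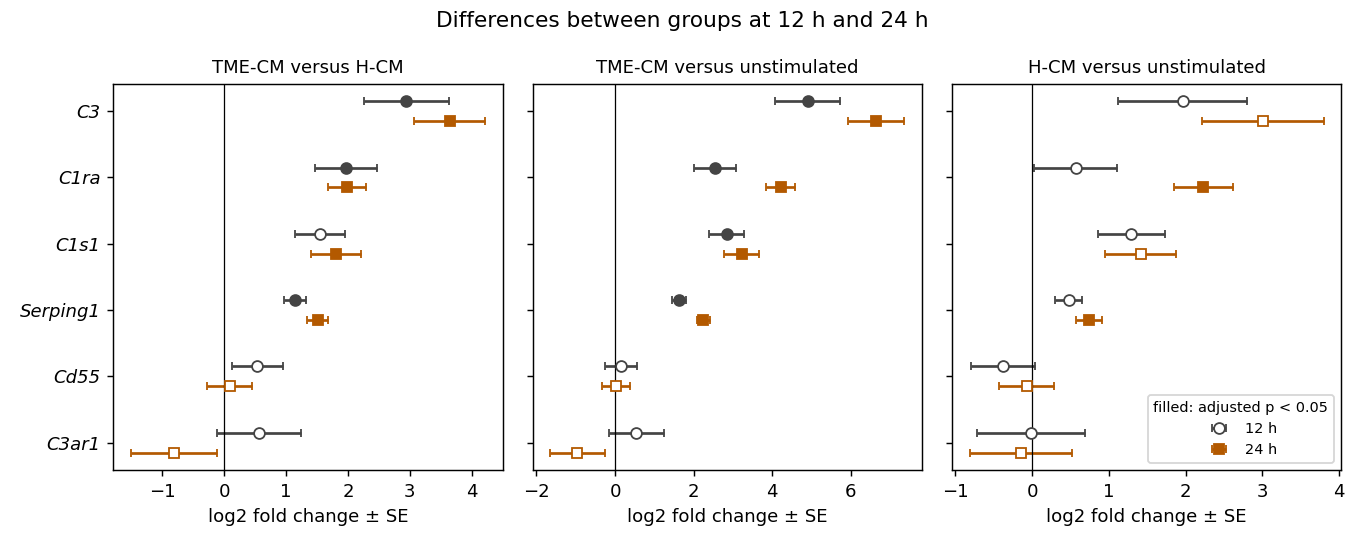
Log2 fold changes (± SE, edgeR) of the 6 tested complement genes at 12 h (dark circles) and 24 h (orange squares) in TME-CM versus H-CM, TME-CM versus unstimulated and H-CM versus unstimulated, filled where the adjusted p is under 0.05. C3 has the largest values in each panel, up to 6.64 in TME-CM versus unstimulated at 24 h, and Cd55 lies near 0.

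C3ar1, the receptor of the C3 fragment C3a, was not called in any comparison. Its level at 24 h was 11.9, 7.85, 3.35 and 1.90 CPM in TME-CM, 14.9, 16.8, 6.66 and 2.85 CPM in H-CM and 16.3, 23.1, 4.81 and 4.48 CPM in unstimulated EGCs, with a wide spread within each group. TME-CM differed from H-CM by -0.81 ± 0.70 (edgeR, adjusted p = 0.663) and from unstimulated EGCs by -0.96 ± 0.69 (edgeR, adjusted p = 0.557), which passed the threshold only with no filter on low counts (-0.95, edgeR, adjusted p = 0.046). At 12 h the difference to H-CM was 0.56 ± 0.68 (edgeR, adjusted p = 0.850).

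C3ar1 is known from macrophages and other myeloid cells, and the cultures held transcripts of such cells. All 11 genes of a macrophage marker list (among them Ptprc, Csf1r, Lyz2 and the C1q chain genes) were counted in every group of 12 h and 24 h, with summed levels of 58.8 to 379 CPM per library at 12 h and 63.7 to 412 CPM at 24 h. Lyz2 makes up most of these sums. It had 15909 counts over the 36 libraries, against 1405 for Fcer1g, the next gene of the list. In TME-CM the sums ran from 80.5 to 412 CPM at 24 h, and in H-CM from 83.3 to 396 CPM, and none of the 11 genes was called. With each group's mean removed, log2 C3ar1 went with the log2 sum of the 10 markers that passed the filter over the 24 libraries (Pearson r = 0.759, Spearman rho = 0.703), with r = 0.749 without the 2 libraries farthest from the median sum, 0.608 within 12 h and 0.935 within 24 h. For C3, C1ra, C1s1, Serping1 and Cd55, r lay between -0.35 and 0.18. Within a single time it ran from -0.46 (Serping1, 12 h) to 0.40 (C1ra, 24 h), and Spearman rho for Serping1 over the 24 libraries was -0.471. These are descriptions without a test, because the libraries are not independent in this measure. In 6 of 6 groups of 12 h and 24 h, replicates 1 and 2 had higher macrophage sums than replicates 3 and 4, and for C3ar1 the same held in 5 of 6 groups. At 24 h, C3ar1 in TME-CM was below H-CM and below unstimulated EGCs at each of the 4 replicate numbers, and with the replicate number as a block the differences were -0.75 ± 0.30 and -0.91 ± 0.29, neither of them called (edgeR, adjusted p = 0.201 and 0.0592). At 12 h it was below each of them at 2 of 4 numbers.

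**Figure D3:**
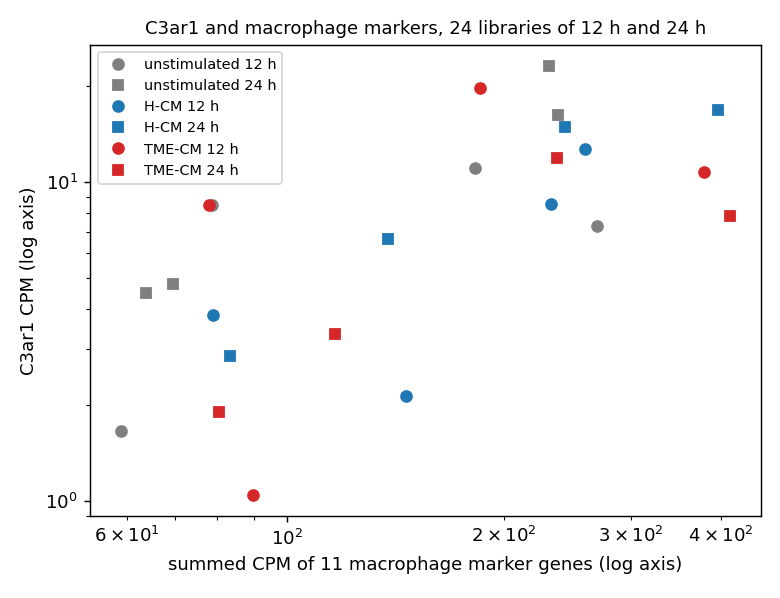
C3ar1 level (CPM, log axis) against the summed CPM of 11 macrophage marker genes (log axis) in the 24 libraries of 12 h (circles) and 24 h (squares), coloured by stimulation. Libraries with a high sum tend to have a high C3ar1 level in all 3 stimulations, and the groups lie among each other. The library with the highest sum, TME-CM replicate 2 of 24 h at 412 CPM, had 7.85 CPM of C3ar1.

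Some markers of other cell types differed between the stimulations. The enteric glial markers Sox10, S100b, Erbb3, Foxd3, Entpd2 and Gfap were counted in every group of 12 h and 24 h, and none of them was called. Sox10, a transcription factor of glia, averaged 72.5 ± 12.9 CPM (SD, n = 4) in unstimulated EGCs, 74.3 ± 6.3 CPM in H-CM and 74.6 ± 1.7 CPM in TME-CM at 24 h. S100b, a calcium-binding protein of glia, averaged 75.3 ± 12.7, 91.0 ± 24.9 and 54.9 ± 19.1 CPM in the same groups, and TME-CM differed from H-CM by -0.76 on the log2 scale (edgeR, adjusted p = 0.0847). The 5 fibroblast markers summed to 5804 to 7752 CPM in unstimulated EGCs, 4992 to 5685 CPM in H-CM and 6047 to 7828 CPM in TME-CM at 24 h. Dcn was higher in TME-CM than in H-CM by 1.21, Pdgfra by 0.93 and Lum by 0.65 on the log2 scale (edgeR, adjusted p = 4.89e-06, 0.00193 and 0.0145). The other fibroblast markers differed less, and both were highest in unstimulated EGCs. Col1a1 averaged 4592 ± 732 CPM in unstimulated EGCs, 3175 ± 294 CPM in H-CM and 3401 ± 485 CPM in TME-CM. Col1a2 averaged 1271 ± 262, 1009 ± 115 and 1097 ± 255 CPM in the same groups. The median sum of the 5 smooth muscle markers at 24 h was 7964 CPM in unstimulated EGCs. It was 3577 CPM in H-CM and 2210 CPM in TME-CM. In TME-CM versus H-CM, 4 of 5 were called lower, beside 337 of all 12713 genes tested. The mean of each of the 5 was lower in TME-CM than in H-CM. Among the endothelial markers Kdr fell by 1.65 on the log2 scale in TME-CM versus H-CM at 24 h (edgeR, adjusted p = 0.00203). Its mean was 45.5 CPM in H-CM and 14.3 CPM in TME-CM. Pecam1 averaged 5.47 and 3.86 CPM and Cdh5 0.240 and 0.251 CPM in the same groups. The sum of the 3 markers, 11.6 to 28.0 CPM in TME-CM against 34.9 to 69.6 CPM in H-CM, thus mostly repeats Kdr. Neuronal markers summed to 331 to 551 CPM and mesothelial ones to 2.95 to 16.4 CPM at 12 h and 24 h, with none called. The epithelial markers, by which tumor cells could be recognised, summed to at most 1.74 CPM in any library of 24 h. The part of fibroblasts, smooth muscle cells, endothelial cells and macrophages in the levels of C3, C1ra, C1s1 and Serping1 was not tested.

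To follow the genes over time, 24 h was compared with 12 h in one model of these 24 libraries. On the log2 scale, C3 and C1ra in TME-CM were 1.38 ± 0.60 and 0.62 ± 0.40 higher at 24 h. C1s1 and Serping1 were 0.57 ± 0.39 and 0.62 ± 0.18 higher. The later libraries lay above all earlier ones for these genes only in CPM scaled separately at each time. With raw library totals they overlapped. The lowest 24 h and highest 12 h libraries then had 64.2 and 74.1 CPM for C3, and 379 and 482 CPM for Serping1. For C1ra they had 29.9 and 31.6 CPM, and for C1s1 32.1 and 33.7 CPM. None of the 6 genes was called (edgeR, adjusted p = 0.112 for Serping1 and 0.561 for C3). Of all 13105 genes, 0.626% changed in either direction. C3 and Serping1 had an unadjusted p under 0.05, beside 1034 of all 13105 genes. DESeq2 called none of the 6 either. In unstimulated EGCs and in H-CM, none of the 6 was called by edgeR or DESeq2, where edgeR called 0.0153% and 0.00763% of all genes. None of the 6 had an unadjusted p under 0.05 there, beside 694 and 817 of all 13105 genes. Unstimulated values moved by -1.02 (C1ra) to 0.69 (C3ar1).

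The change of the TME-CM effect over H-CM from 12 h to 24 h was tested directly. It was 0.68 ± 0.93 for C3, 0.02 ± 0.65 for C1ra, 0.28 ± 0.57 for C1s1 and 0.37 ± 0.25 for Serping1 on the log2 scale. None of the 6 genes was called by edgeR or DESeq2, where edgeR called 0% of all genes. None of the 6 had an unadjusted p under 0.05, beside 436 of all 13105 genes. Thus the larger folds at 24 h were not shown to differ from those at 12 h.

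H-CM at 12 h called none of the 6 genes over unstimulated EGCs with edgeR, where 0.354% of all genes were called higher, and none with DESeq2. C3, C1s1 and Serping1 had an unadjusted p under 0.05 there, beside 688 of all 12156 genes. With no filter on low counts C3 alone was called (edgeR, adjusted p = 0.00104).

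The rest of the pathway was examined as a list of 46 other complement genes, of which 36 had a count, 16 were tested at 12 h and 17 at 24 h. In TME-CM versus H-CM 0 rose and 1 fell at 12 h, beside 148 and 82 of all 12156 genes tested. At 24 h 1 rose and 2 fell, beside 349 and 337 of all 12713. Against unstimulated EGCs 0 rose and 1 fell at 12 h, beside 325 and 211 of all genes. There 2 rose and 3 fell at 24 h, beside 613 and 597. H-CM versus unstimulated had none in either direction at both times, beside 43 and 6 of all genes at 12 h and 136 and 122 at 24 h. The median log2 fold change of the list in TME-CM versus H-CM was 0.23 at 12 h and 0.25 at 24 h, beside 0.00 over all genes and 1.35 and 1.66 over the 6 genes above. Both sets were chosen with earlier results of these data known, so the contrast between them may reflect that choice and is a description.

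Among the recognition and initiation genes, 6 of 15 were tested at 24 h. Colec12, a collectin with a transmembrane anchor, rose from 39.8 ± 7.8 CPM (SD, n = 4) in H-CM to 65.1 ± 5.0 CPM in TME-CM, by 0.71 ± 0.18 on the log2 scale (edgeR, adjusted p = 0.02). Colec10, a soluble collectin, fell from 14.5 ± 3.9 CPM to 6.06 ± 4.16 CPM, by 1.43 on the log2 scale (edgeR, adjusted p = 0.0263), with overlapping groups. The C1q chain genes C1qa, C1qb and C1qc, whose product recruits C1r and C1s, were not called, with differences of 0.20 ± 0.67, 0.46 ± 0.67 and -0.07 ± 0.70 between TME-CM and H-CM at 24 h (edgeR, adjusted p = 0.936, 0.830 and 0.980). Whether the C1q genes differed from the proteases was not tested.

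Regulators and receptors moved in both directions. Susd4, a regulator that hinders convertase formation, fell from 23.1 ± 6.4 CPM in H-CM to 5.94 ± 3.00 CPM in TME-CM at 12 h, by 1.92 on the log2 scale (edgeR, adjusted p = 0.00526), and from 23.0 ± 5.6 to 7.89 ± 3.37 CPM at 24 h, by 1.60 (edgeR, adjusted p = 0.000764), with no overlap at either time. Cd59a, which blocks the membrane attack complex, fell by 1.02 on the log2 scale against unstimulated EGCs at 24 h (edgeR, adjusted p = 0.00515), and differed from H-CM by -0.31 ± 0.23 (edgeR, adjusted p = 0.585). Cd93, once described as a C1q receptor, was 1.80 ± 0.46 above the unstimulated group at 24 h (edgeR, adjusted p = 0.0126) and 1.25 ± 0.46 above H-CM (edgeR, adjusted p = 0.137). Among the convertase and later components, 1 of 10 genes, Cfp (properdin), passed the filter at 12 h and 24 h, and it was not called. No count was found in any library for Mbl1, Mbl2, Fcnb, Cfd, C7, C8a, C8b, C4bp, Vtn and Vsig4.

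**Figure D4:**
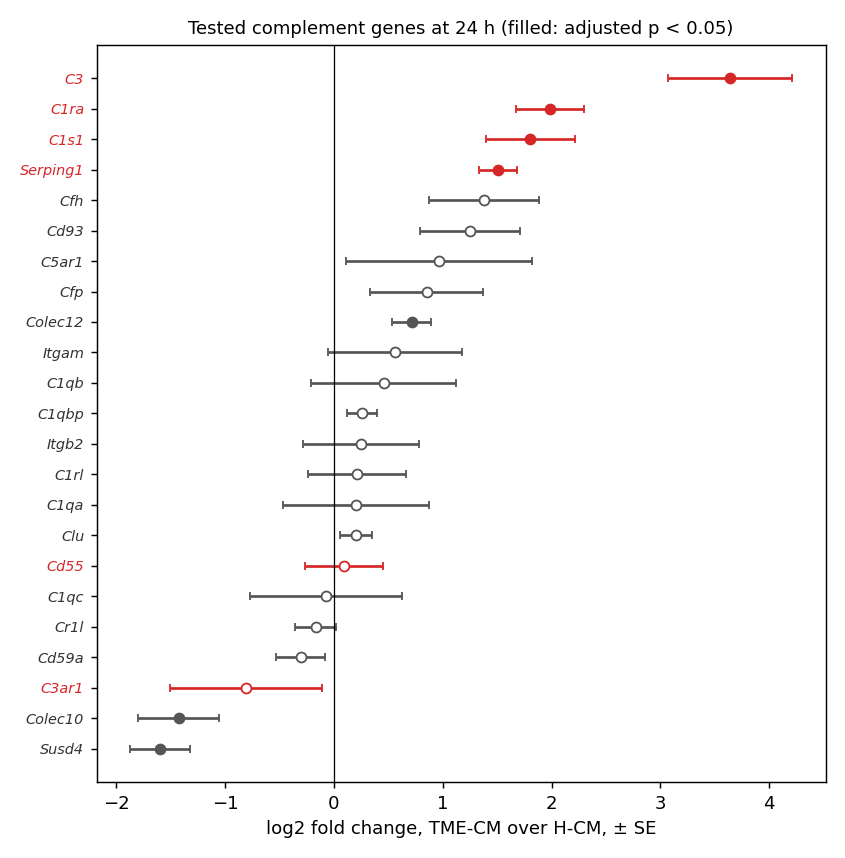
Log2 fold change (± SE, edgeR) of TME-CM over H-CM at 24 h for the 6 tested complement genes followed here (red) and the 17 other tested complement genes (grey), filled where the adjusted p is under 0.05. C3, C1ra, C1s1 and Serping1 have the 4 largest positive values, and Susd4 and Colec10 the lowest.

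By the pattern over the 24 libraries of 12 h and 24 h, the genes most like C3 were Hif1a (r = 0.952), a hypoxia-regulated transcription factor, Lcn2 (0.952), an iron carrier-binding protein of inflammation, Mmp9 (0.951), a matrix protease, Saa3 (0.948), an acute-phase protein, and Cp (0.944), ceruloplasmin. These are Pearson correlations of log2 CPM across libraries of 6 groups among 10192 genes averaging 5 CPM or more, and they are a description, since all these libraries share the same group differences. Serping1 had rank 6 at 0.940, C1s1 92 at 0.849, C1ra 106 at 0.838, Cd55 5095 at 0.01 and C3ar1 6214 at -0.07.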

How the data were processed

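Counts per gene symbol were deposited for 36 libraries. Per the paper's methods and the labels, the authors ran FastQC 0.11.7 for quality and fastq-mcf for adapters. Alignment was by HISAT2 against mm10. Multi-mapping reads were dropped, alignments were handled with Samtools 1.5, and genes were counted with HT-seq Count. These deposited counts are whole numbers without normalization. The gene annotation, the strand setting and any molecular identifiers are not given in the sources used here, so counts are of reads and counting precision covers counting error only. Opposite-strand overlaps could not be resolved.

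Genes were filtered by filterByExpr (minimum count 10), scaled with TMM factors and tested with edgeR 4.0.16's robust quasi-likelihood test (R 4.3.3, limma 3.58.1), in one model per time point over 12 libraries. The comparisons of 24 h with 12 h used one model of 24 libraries. Calls are Benjamini-Hochberg adjusted p under 0.05 over all genes tested. CPM are on TMM-scaled library sizes within a time point. Correlations used log2 CPM with a prior count of 2.

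The 9 genes, the list of 46 other complement genes and the marker lists were chosen with earlier results of these data known. Other genes are named where they were called with TME-CM at 12 h or 24 h, are C1q chains or near-identical copies, or were the 5 most like C3 among those averaging 5 CPM or more, and Cfp was named after its values were seen. Positions are from GENCODE M21 (GRCm38). Alternatives were DESeq2's size factors, no low-count filter, DESeq2 1.42.0's Wald test, only the groups compared, one model of 36 libraries, a replicate block, each library left out in turn, Yam1 left out, and raw library totals for levels. A glial marker of the list is not reported here, nor is the summed level that held it.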

Additional observations from a re-analysis of the deposited data

Results flagged for a closer look

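In 11 groups of 4 libraries, a single library stood far from the other 3, by Dixon's criterion at 95%. For normally spread values chance marks about 1 in 20 groups, which need not hold for groups of few reads. Of the 81 groups of gene and condition, 9 genes in 9 conditions, those without spread or with at most 3 counts in all were not examined.

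H-CM replicate 1 of 24 h was high for C3 (31.0 CPM) and for Serping1 (315 CPM), and H-CM replicate 1 of 12 h was high for C1s1 (13.5 CPM). Serping1 in unstimulated replicate 2 of 24 h was low at 109 CPM. C3 in TME-CM replicate 3 of 6 h was high at 33.0 CPM.

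The remaining libraries rest on few reads. C4b was high in TME-CM replicate 4 of 12 h (1.31 CPM, 5 counts) and in unstimulated replicate 3 of 24 h (0.802 CPM, 5 counts). C2 was high in unstimulated replicate 4 (5.64 CPM, 31 counts) and H-CM replicate 1 (8.92 CPM, 7 counts) of 6 h. Cfb was high in TME-CM replicate 3 of 12 h (1.03 CPM, 5 counts), and Cd55 in H-CM replicate 4 of 6 h (98.1 CPM, 3 counts).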

How the results depend on the processing

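Leaving out each library in turn gave 4 called genes in each fit of TME-CM versus unstimulated at 12 h and 24 h, 1 to 3 in TME-CM versus H-CM at 12 h, 3 to 4 at 24 h, 1 to 2 in H-CM versus unstimulated at 24 h and 0 elsewhere. With no filter on low counts, 1 gene was called in H-CM versus unstimulated at 12 h, 4 at 24 h, and 2 in 24 h versus 12 h of TME-CM. Adjusted p-values of this fit can be far smaller at an unchanged difference. For C3 in H-CM versus unstimulated at 24 h it was 4.67e-27 instead of 0.113 (edgeR), with 3.00 on the log2 scale in both fits. Calls made only without the filter are therefore weak. One model of all 36 libraries shares one spread with the shallow 6 h libraries. It called 1 gene in TME-CM versus H-CM at 6 h (Serping1). In TME-CM versus unstimulated at 6 h it called 2, Serping1 and a gene that the 6 h models had filtered out. At 12 h it called 3 instead of 4 in TME-CM versus unstimulated (without C1ra). In TME-CM versus H-CM it called 1 at 12 h and 1 at 24 h, and in H-CM versus unstimulated 0 at 24 h. The cause of these changes was not tested. Raw library totals moved none of the 81 mean levels by more than 1 SD. Depth limits the 6 h values and C4b, C2 and Cfb at all times.

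With the replicate number as a block, 2 instead of 3 genes were called in TME-CM versus H-CM at 12 h (C1ra, 2.07, edgeR, adjusted p = 0.0539), and no other call of the 9 genes changed. The labels do not say what a replicate number stands for. Over all genes, at most 2 of 4 pairs of a comparison had deviations correlated above 0.1 (-0.162 to 0.229 over 9 comparisons). At most 3 of 4 libraries correlated best with their own number. Macrophage marker sums, in contrast, went with the number in 6 of 6 groups of 12 h and 24 h. The main fits did not use the numbers as pairs, and these values cannot decide whether the libraries are paired. The block turned the sign of uncalled values, Cd55 in TME-CM versus H-CM at 24 h to -0.0382 and versus unstimulated to -0.0670, and C3ar1 in H-CM versus unstimulated at 12 h to 0.0739. One model of all libraries gave -0.0363 for Cd55 in TME-CM versus unstimulated at 24 h, and no filter gave 0.0354 for C3ar1 in H-CM versus unstimulated at 12 h.

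Some uncalled log2 values changed sign with 1 library left out. Over these fits C3ar1 ran from -1.17 to 0.0430 in H-CM versus unstimulated at 6 h, from -0.524 to 0.320 at 12 h and from -0.477 to 0.399 at 24 h, from -0.0272 to 1.07 in TME-CM versus H-CM at 12 h and from -0.0462 to 0.925 in TME-CM versus unstimulated at 12 h. Cd55 ran from -0.0367 to 0.341 in TME-CM versus unstimulated at 12 h and from -0.312 to 0.279 at 24 h, from -0.244 to 0.345 in TME-CM versus H-CM and from -0.206 to 0.0772 in H-CM versus unstimulated at 24 h, and from -0.594 to 0.0289 between 12 h and 24 h of TME-CM. Serping1 ran from -0.0816 to 0.408 in H-CM versus unstimulated at 6 h. The change of the TME-CM effect over H-CM ran from -0.189 to 1.75 for C3 and from -0.266 to 0.347 for C1ra.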
